A study of Homo sapiens with 6 samples.

Results

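The 5 genes of the human lysyl oxidase family, LOX, LOXL1, LOXL2, LOXL3 and LOXL4, were followed in dermal fibroblasts carrying hairpin RNAs against ZNF469. The members were taken by symbol from a deposited table of 21151 genes. All 5 had counts high enough to enter the test, which covered 16353 genes. The libraries labelled shZNF469 (genotype ZNF469 knockdown, 3 libraries) were set against those labelled shControl (genotype WT, 3 libraries). Both groups are CCD-1064Sk fibroblasts (CRL-2076), a single line from human skin, grown in IMDM with serum, and both carry a short hairpin RNA, a construct that lowers a matching transcript. The hairpin sequences and their number were not given in the sources used here. The series' design text calls the 3 libraries of a group technical replicates, so the p-values measure only the spread between these libraries. The study asked how ZNF469, a gene for a zinc-finger protein, bears on the making of extracellular matrix.

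Lysyl oxidases are secreted, copper-dependent amine oxidases. They convert lysine and hydroxylysine side chains of collagens and elastin to aldehydes, which then condense into the covalent cross-links that give fibres their strength. LOX and LOXL1 are made as proenzymes whose propeptide is cut off outside the cell, whereas LOXL2, LOXL3 and LOXL4 carry scavenger receptor cysteine-rich domains ahead of the catalytic domain. In skin the family is known for its part in setting the stiffness of collagen bundles and the recoil of elastic fibres.

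In shZNF469 fibroblasts the family moved unevenly. LOXL2 was 1.54-fold lower, LOXL1 was 1.24-fold higher, LOXL4 was 1.19-fold higher, and LOX and LOXL3 did not pass the test. By the adjusted p under 0.05 that served as threshold, 2 members were higher and 1 was lower, where 9.9% of all tested genes passed, 4.56% higher and 5.34% lower. The call for LOXL2 held in each of the 15 alternative fits, while those for LOXL1 and LOXL4 were lost in 9 and 8 of them. Both kept their direction, at log2 fold changes of 0.24 to 0.39 for LOXL1 and 0.22 to 0.29 for LOXL4.

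Promoter sequence is printed for LOXL4, which rose, to show its base composition and motifs. It is RefSeq sequence on GRCh38.p14, written 5′ to 3′ on the minus strand that the gene uses. The window is the part of the 250 bases ahead of the RefSeq start that lies beyond every LOXL4 transcript start annotated by GENCODE, chr10:98268251-98268444 (194 bases). Capitals mark matches, on either strand, to the motifs searched, with a match on the opposite strand shown as the reverse complement of the motif.
LOXL4: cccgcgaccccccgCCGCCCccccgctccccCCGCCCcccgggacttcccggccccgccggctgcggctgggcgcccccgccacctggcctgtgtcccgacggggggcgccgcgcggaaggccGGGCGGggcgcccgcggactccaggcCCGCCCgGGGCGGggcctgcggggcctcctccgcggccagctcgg
The core of the element bound by hypoxia-inducible factors was searched as ACGTG and, in its variant form, as GCGTG. The other motifs were CCAAT, the TATA box as TATAAA, and the box bound by Sp1-type factors as GGGCGG. The LOXL4 window held 5 matches to GGGCGG, a number reached in 1.59% of 35116 promoter windows of the same length, and no match to the other motifs. Its GC content was 88.1%, against a median of 57.2% over such windows. The window of LOX, which did not pass the test, was chosen in the same way (149 bases) and lies inside SRFBP1 in the RefSeq annotation, so its letters are not printed. It had a GC content of 59.1%, against a median of 56.4% at that length. It held 2 matches to the hypoxia core, a number reached in 8.49% of windows, and 1 CCAAT, which is present in 18.7%, with no TATAAA and no GGGCGG. These matches describe letters in a window and say nothing of binding. No window of LOXL1, LOXL2 or LOXL3 is described here, so the motifs cannot be set against the changes of the family.

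The libraries held 41318439 to 48298264 counts in shZNF469 and 35417366 to 46911355 in shControl. ZNF469 itself had 21.4, 18.3 and 18.5 CPM (counts scaled to a common library size by the TMM method) in shZNF469, against 39.7, 46.2 and 39.9 in shControl, a log2 fold change of -1.12 (SE 0.092, edgeR adjusted p = 0.000873). On the first principal component of all tested genes (30.5% of variance), the shZNF469 libraries lay at 36.7 to 42.2. There shControl replicate 2 lay at -10.2, and the other controls at -55.8 and -52.0. On the second component (22.4%), shControl replicates 1 and 3 lay far apart at 61.6 and -62.2, with replicate 2 at -2.99. The shZNF469 libraries lay at -3.48 to 8.57 on that component. The 11 fibroblast markers were all listed, with a summed TPM (a transcript abundance scaled by length) of 25787 to 27289 in shZNF469 and 32381 to 34805 in shControl. Of these markers, COL1A1 fell, with 2434.4 ± 161.2 TPM in shZNF469 and 8285.7 ± 587.9 TPM in shControl, and so did COL1A2, with 4844.0 ± 370.3 TPM in shZNF469 and 8958.5 ± 579.5 TPM in shControl (SD, n = 3 each). VIM rose, with 11983 ± 302.6 TPM in shZNF469 and 9751.4 ± 302.3 TPM in shControl. The VIM call was lost in 3 of the 15 alternative fits, while those of COL1A1 and COL1A2 held in all 15. The other 8 markers did not pass, where 9.9% of all tested genes passed, and the list's median log2 fold change was 0.12. The melanocyte markers MLANA, TYR, DCT, TYRP1 and SOX10 were not among the listed genes, nor were KRT5, KRT14, PECAM1, CDH5, KDR, PTPRC or CD3E. The endothelial markers TEK and VWF were listed, at a summed TPM of 0 to 1.35 in shZNF469 and 0.904 to 1.66 in shControl. Of 6 keratinocyte markers only KRT10 was listed, at 18.5 to 18.8 TPM in shZNF469 and 24.4 to 28.3 TPM in shControl. Of 5 immune markers, 2 were listed, mainly CD68, with a summed TPM of 203.6 to 245.0 in shZNF469 and 171.9 to 194.8 in shControl. Of 5 smooth muscle and pericyte markers, 4 were listed, with 51.7 to 57.8 TPM in shZNF469 and 58.8 to 67.3 TPM in shControl. The part of these shifts in the results below was not tested. In bulk RNA, fewer cells of a kind and less RNA per cell cannot be told apart.

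LOX, the founding member and the main oxidase of fibrillar collagen and elastin in skin, lies on chromosome 5 (122063195 to 122078259, minus strand, 7 exons, ENSG00000113083). It had 850.1, 949.2 and 847.4 CPM in shZNF469, against 913.8, 883.5 and 862.0 CPM in shControl. The groups overlapped, and shZNF469 replicate 2 was the highest of all 6 libraries. The mean was 882.2 ± 58.0 CPM in shZNF469 and 886.4 ± 26.1 CPM in shControl (SD, n = 3 each). On the log2 scale the difference was -0.01 (SE 0.055, edgeR adjusted p = 0.962). Its 95% interval of -0.14 to 0.12 on the log2 scale spans 0.91-fold to 1.089-fold, so a change of the size seen for LOXL2 lies outside it.

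LOXL1, a close relative of LOX that in mice is needed for the upkeep of elastic fibres, lies on chromosome 15 (73926462 to 73952136, plus strand, 7 exons, ENSG00000129038). It had 251.3, 217.3 and 265.9 CPM in shZNF469, against 196.9, 196.6 and 199.6 CPM in shControl. Each shZNF469 library was above every control, and replicate 2 stood lowest of the 3, nearest to the controls. Between tested genes, 15.6% had groups that did not overlap with shZNF469 on top. The mean was 244.9 ± 25.0 CPM in shZNF469 and 197.7 ± 1.62 CPM in shControl (SD, n = 3 each). LOXL1 rose by 0.31 on the log2 scale (SE 0.077, 95% interval 0.13 to 0.49, edgeR adjusted p = 0.0477). The call was lost when any library other than shZNF469 replicate 2 was left out (edgeR adjusted p up to 0.156).

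LOXL2, which oxidises type I and type IV collagen and acts in basement membranes, lies on chromosome 8 (23296897 to 23404120, minus strand, 14 exons, ENSG00000134013). It had 611.5, 548.9 and 596.5 CPM in shZNF469, against 896.7, 912.4 and 905.2 CPM in shControl. The groups lay far apart, and the controls were close to each other. The mean was 585.6 ± 32.7 CPM in shZNF469 and 904.7 ± 7.86 CPM in shControl (SD, n = 3 each), so that shZNF469 held 64.7% of the control level. LOXL2 fell by 0.63 on the log2 scale (SE 0.05, edgeR adjusted p = 0.000818). The 95% interval was -0.74 to -0.51, or 0.597-fold to 0.702-fold of control.
By p-value LOXL2 ranked 61 among the tested genes. A fold change at least as low was found for 867 genes (5.3%), of which 294, or 1.8% of those tested, also passed the test. Over the 15 alternative fits its log2 fold change ran from -0.66 to -0.58.

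LOXL3, known in mice from cartilage and palate development, lies on chromosome 2 (74532258 to 74555702, minus strand, 14 exons, ENSG00000115318). It had 86.3, 72.2 and 81.7 CPM in shZNF469, against 78.9, 75.7 and 81.4 CPM in shControl. Values of the groups were interleaved, with both the highest and the lowest library in shZNF469. The mean was 80.1 ± 7.18 CPM in shZNF469 and 78.7 ± 2.81 CPM in shControl (SD, n = 3 each), with a log2 fold change of 0.03 (SE 0.076, 95% interval -0.15 to 0.20, edgeR adjusted p = 0.889).

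LOXL4, which has the same domain plan as LOXL2 and LOXL3, lies on chromosome 10 (98247690 to 98268194, minus strand, 15 exons, ENSG00000138131). It had 153.4, 139.6 and 145.5 CPM in shZNF469, against 119.3, 123.0 and 125.2 CPM in shControl. No shZNF469 library fell within the control range. The mean was 146.2 ± 6.95 CPM in shZNF469 and 122.5 ± 2.99 CPM in shControl (SD, n = 3 each). LOXL4 rose by 0.25 on the log2 scale (SE 0.055, 95% interval 0.12 to 0.38, edgeR adjusted p = 0.0314). Leaving out any library other than shZNF469 replicate 2 ended the call (edgeR adjusted p up to 0.119).

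**Figure D1:**
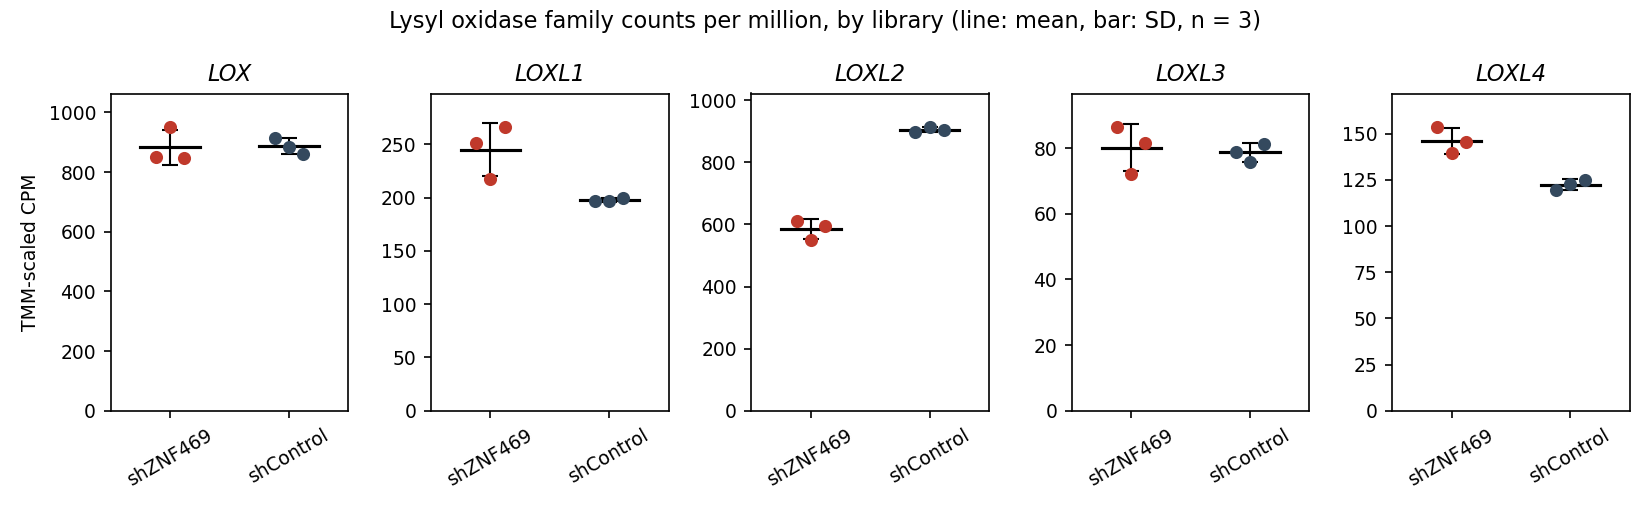
Normalised counts (CPM, TMM-scaled) of the 5 lysyl oxidase genes in each library, 3 of shZNF469 and 3 of shControl, with each point a library, the line the mean and the bar the SD. LOXL2 sits at 548.9 to 611.5 CPM in shZNF469, below its controls at 896.7 to 912.4 CPM, while LOX overlaps between groups.

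**Figure D2:**
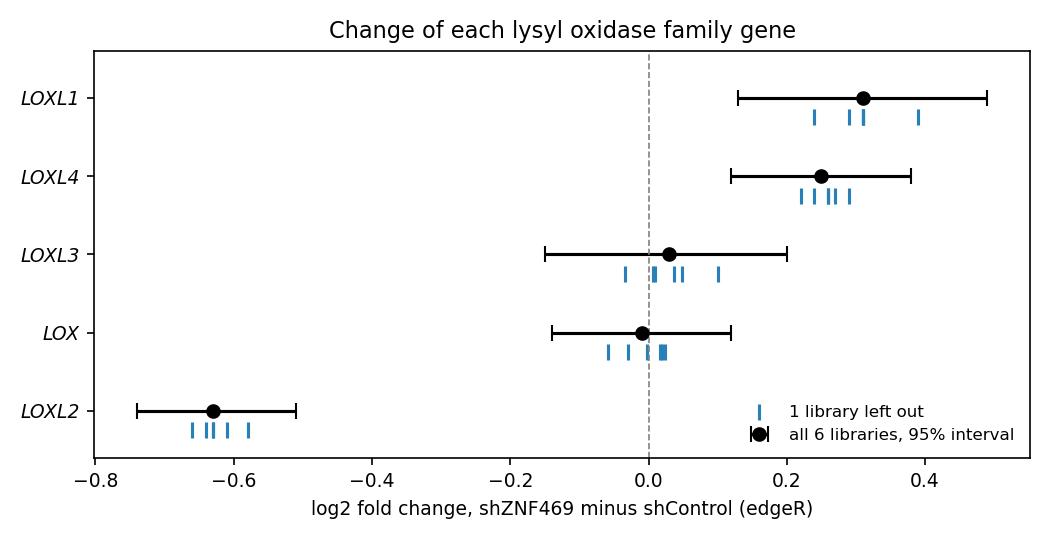
Log2 fold change of each lysyl oxidase gene, shZNF469 minus shControl, with its 95% interval from the edgeR fit, and below it a tick for each fit with 1 library left out. The interval of LOXL2 runs from -0.74 to -0.51, those of LOXL1 and LOXL4 lie above 0, and those of LOX and LOXL3 cross 0.

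Levels of different genes can be set side by side only on a length-scaled unit, here the authors' TPM. In shZNF469 the order was LOX at 406.4 ± 50.0 TPM, LOXL2 at 367.0 ± 16.3, LOXL1 at 240.7 ± 11.1, LOXL4 at 93.5 ± 5.49 and LOXL3 at 51.3 ± 3.44 (SD, n = 3). In shControl it was LOXL2 at 574.8 ± 26.4 TPM, LOX at 413.6 ± 29.4, LOXL1 at 197.5 ± 8.11, LOXL4 at 79.4 ± 2.32 and LOXL3 at 50.8 ± 1.52 (SD, n = 3). LOXL2 was thus the most abundant member in controls, 1.39-fold above LOX, and LOX headed the order in shZNF469. There the ranges of LOX (366.0 to 462.4 TPM) and LOXL2 (350.7 to 383.4 TPM) overlapped, although LOX was above LOXL2 in each of the 3 libraries. The other neighbours in either order did not overlap. LOXL1, LOXL4 and LOXL3 kept their places below that pair. Among all tested genes ranked by TPM, LOXL2 stood 375 in shZNF469 and 253 in shControl, while LOXL1 stood 575 in shZNF469 and 732 in shControl.

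**Figure D3:**
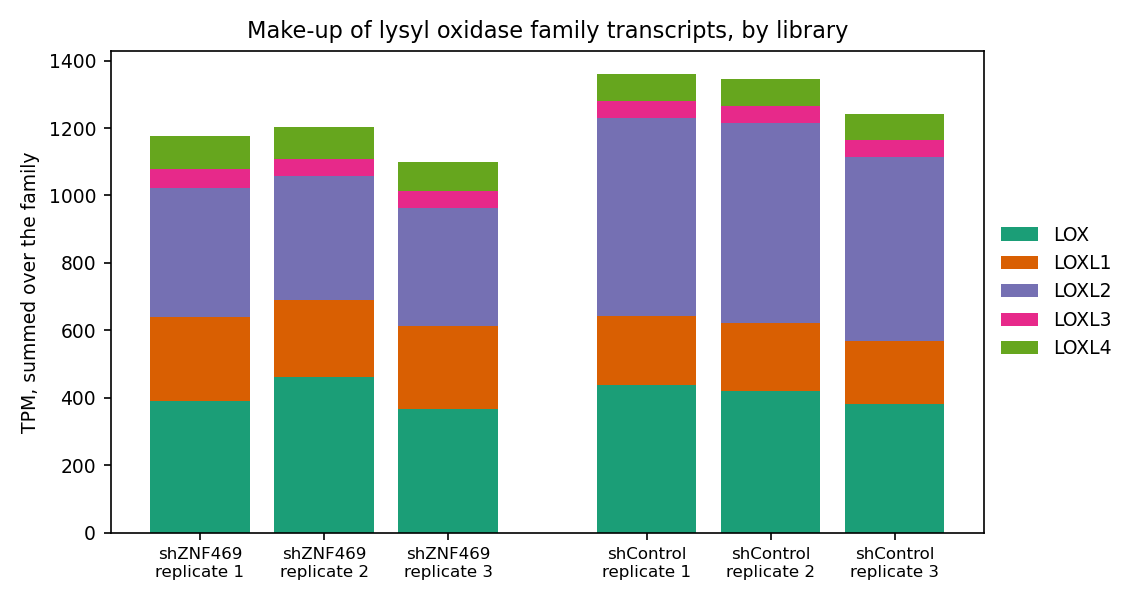
Authors' TPM of the 5 members in each library, stacked, with shZNF469 libraries left of shControl libraries. The LOXL2 segment takes 30.5% to 32.6% of the stack in shZNF469 and 43.2% to 44.0% in shControl.

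Summed over its members, the family came to 1175.3, 1201.7 and 1100.0 TPM in shZNF469, against 1361.0, 1346.5 and 1241.0 TPM in shControl. No shZNF469 library reached the lowest control. The sum averaged 1159.0 ± 52.7 TPM in shZNF469 and 1316.2 ± 65.5 TPM in shControl (SD, n = 3 each), 1.14-fold lower, with a two-sided exact permutation p of 0.1, the smallest that 3 against 3 allows. Without LOXL2 the other members summed to 792.0 ± 42.7 TPM in shZNF469 and 741.4 ± 40.1 TPM in shControl (SD, n = 3 each), with overlapping groups (exact permutation p = 0.3). On the CPM scale the sum without LOXL2 was 1353.3 ± 21.6 in shZNF469 and 1285.4 ± 21.2 in shControl (SD, n = 3 each), 1.05-fold higher with no overlap (exact permutation p = 0.1).

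The make-up of the family's transcripts shifted accordingly. LOXL2 took 32.6%, 30.5% and 31.9% of the summed TPM in shZNF469, against 43.2%, 44.0% and 43.9% in shControl, a difference of -12.0 percentage points. LOXL1 took 21.1%, 19.0% and 22.4% in shZNF469, against 14.9%, 15.0% and 15.2% in shControl. The difference for LOXL1 was 5.81 percentage points, and 3.6 when shares were taken of summed CPM. LOX took 35.0% ± 3.01 in shZNF469 and 31.4% ± 0.761 in shControl (SD, n = 3 each), a difference of 3.6 points that came to 1.86 without shZNF469 replicate 2. The share of LOXL4 was 8.07% ± 0.246 in shZNF469 and 6.04% ± 0.173 in shControl, and that of LOXL3 was 4.43% ± 0.299 in shZNF469 and 3.87% ± 0.179 in shControl (SD, n = 3 each). All 5 shares had groups that did not overlap, each with an exact permutation p of 0.1, the smallest possible (0.1 after adjustment over the 5 shares). Groups did not overlap, in either direction, for 31.4% of single tested genes. Shares add up to a whole, so the fall of LOXL2 raises the share of a member such as LOX whose own level did not pass the test. The 5 shares are therefore not separate results.

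Ratios of counts within a library do not depend on scaling between libraries. LOX over LOXL2 was 1.39, 1.73 and 1.42 in shZNF469, against 1.02, 0.968 and 0.952 in shControl. In controls the count ratio stayed near 1, and in each shZNF469 library it was higher. LOXL1 over LOXL2 averaged 0.418 ± 0.0256 in shZNF469 and 0.219 ± 0.00264 in shControl (SD, n = 3 each), 1.91-fold higher. LOXL4 over LOXL2 averaged 0.25 ± 0.00527 in shZNF469 and 0.135 ± 0.0027 in shControl (SD, n = 3 each), 1.84-fold higher. LOXL3 over LOXL2 was 1.57-fold higher. LOXL1 over LOXL4, a pair that both rose, was 1.67 ± 0.139 in shZNF469 and 1.61 ± 0.0315 in shControl (SD, n = 3 each), and the groups overlapped (exact permutation p = 0.7). Of the 10 pairs of members, 7 had ratios that did not overlap between groups, including all 4 with LOXL2, which share its fall. Of single tested genes, 31.4% did not overlap in either direction. The exact permutation p of each of the 7 was 0.1, or 0.143 after Benjamini-Hochberg adjustment over the 10 pairs.

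Type I collagen and elastin genes, which encode substrates of these enzymes, were lower by larger folds than any member. Of the 14 listed fibrillar collagen, collagen IV and elastin genes, 11 were tested, 9 fell and 0 rose, where 5.34% of all tested genes fell. Their median log2 fold change was -0.62, against 0.00 for all tested genes. The list overlaps with matrix genes already known to fall in these libraries, so it is not independent evidence of a direction. COL1A1, which encodes the main chain of type I collagen, averaged 6169.9 ± 317.0 CPM in shZNF469 and 20803 ± 873.3 CPM in shControl (SD, n = 3 each), 3.37-fold lower (edgeR adjusted p = 1.6e-05). COL1A2, its partner chain, was 1.83-fold lower, and COL3A1, the chain of type III collagen, was 1.76-fold lower at 1612.3 ± 91.2 CPM in shZNF469 and 2834.6 ± 137.0 CPM in shControl (SD, n = 3 each). ELN, which encodes elastin, had 58.6, 53.8 and 55.2 CPM in shZNF469, against 127.5, 135.0 and 135.8 CPM in shControl, 2.38-fold lower. COL4A1, a collagen IV chain, was 1.54-fold lower, the same fold as LOXL2. COL4A2, its partner, did not pass at 1429.5 ± 85.6 CPM in shZNF469 and 1498.0 ± 82.2 CPM in shControl (edgeR adjusted p = 0.57), and neither did COL27A1.

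Set against type I collagen genes or elastin, all 5 enzymes stood higher in shZNF469 than in shControl. Each of these denominators fell, and ratios to the other substrates of the list, apart from COL3A1, were not computed. LOX counts were 4.83%, 5.80% and 5.17% of the summed COL1A1 and COL1A2 counts in shZNF469, against 2.32%, 2.11% and 2.19% in shControl. That is 2.38-fold higher, although LOX itself did not pass the test. LOXL2, in spite of its fall, was 3.49% ± 0.142 of those collagen counts in shZNF469 and 2.25% ± 0.0616 in shControl (SD, n = 3 each), 1.55-fold higher. LOXL1 was 2.96-fold, LOXL4 2.86-fold and LOXL3 2.43-fold higher by the same measure. Counts are not scaled by length, so these percentages compare groups within a member and not members with each other.

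Over elastin, LOX was 2.36-fold, LOXL1 2.93-fold, LOXL2 1.54-fold, LOXL3 2.42-fold and LOXL4 2.84-fold higher. Over COL3A1, LOXL2 was 36.6%, 33.1% and 39.6% in shZNF469, against 31.8%, 30.6% and 33.4% in shControl. These groups overlapped, and the log2 difference of 0.19 (1.14-fold; 0.12 without shZNF469 replicate 3) had an exact permutation p of 0.2. LOX over COL3A1 was 1.75-fold and LOXL1 2.17-fold higher. Of the 15 enzyme to substrate ratios, 14 did not overlap between groups, each with an exact permutation p of 0.1 (0.107 after adjustment over the 15), beside the 31.4% of single tested genes given above. The 15 ratios reuse 3 denominators that fell, so they are not separate results.

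**Figure D4:**
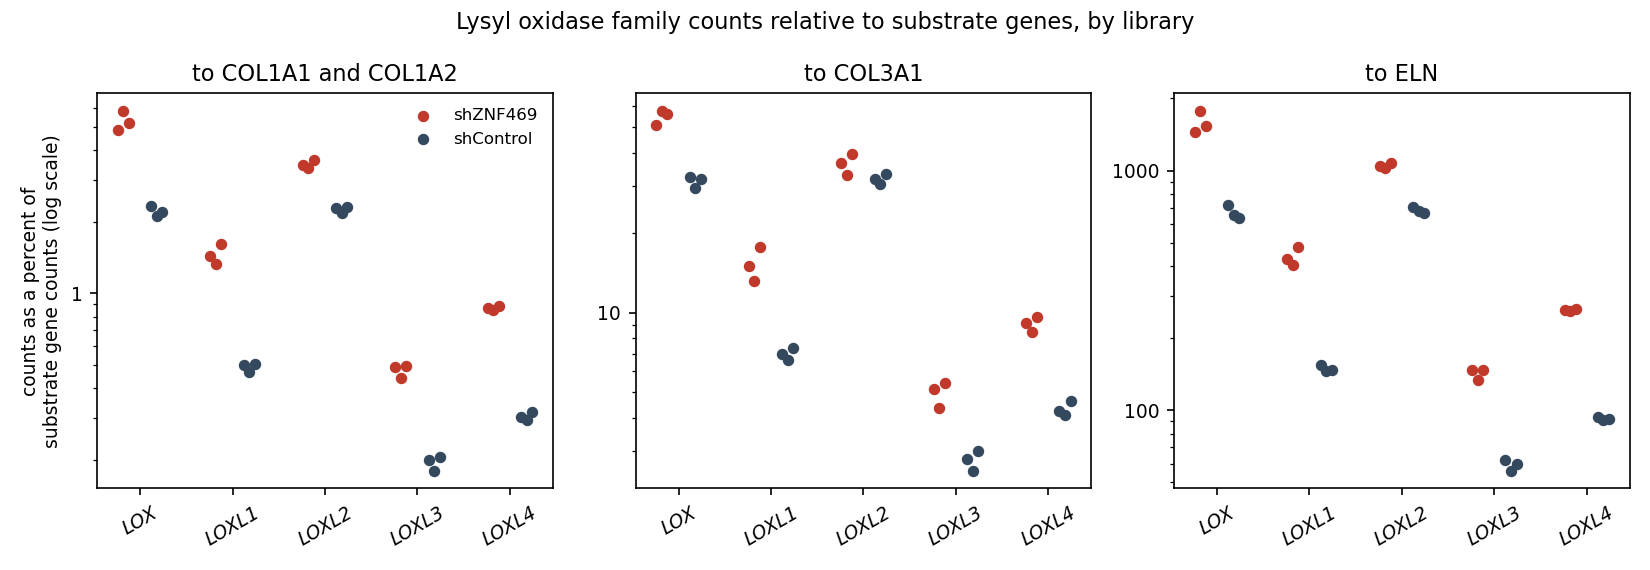
Counts of each lysyl oxidase gene as a percentage of the counts of type I collagen genes, COL3A1 or ELN in the same library, on a log axis, with shZNF469 points left of shControl points. Every ratio is higher in shZNF469 with no overlap except LOXL2 over COL3A1, at 33.1% to 39.6% in shZNF469 and 30.6% to 33.4% in shControl.

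A further list held the enzymes that release the LOX and LOXL1 propeptides, and other procollagen proteinases. Of 9 listed genes 7 were tested, 1 rose and 0 fell, where 9.9% of all tested genes passed. Their median log2 fold change was 0.05. BMP1, the proteinase that cuts pro-LOX, had 97.1 ± 4.48 CPM in shZNF469 and 93.8 ± 2.06 CPM in shControl (SD, n = 3 each; edgeR adjusted p = 0.666). PCOLCE, its enhancer on procollagen, had 876.6 ± 77.8 CPM in shZNF469 and 830.8 ± 38.7 CPM in shControl (edgeR adjusted p = 0.593). FURIN, a proprotein convertase, rose 1.27-fold to 166.1 ± 6.99 CPM in shZNF469, against 130.6 ± 1.95 CPM in shControl (edgeR adjusted p = 0.00855). ADAMTS2, which trims the amino end of procollagens, lay just outside the threshold at 319.9 ± 9.77 CPM in shZNF469 and 367.4 ± 14.8 CPM in shControl (edgeR adjusted p = 0.0503).

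Matrix proteins that bind the enzymes or hold them to fibres went both ways. All 13 listed genes were tested, 3 rose and 3 fell, where 4.56% of all tested genes rose and 5.34% fell. Their median log2 fold change was 0.04. EFEMP2 (fibulin-4), which brings LOX to elastin, had 365.6 ± 38.7 CPM in shZNF469 and 356.4 ± 17.4 CPM in shControl (edgeR adjusted p = 0.852). FBLN5 (fibulin-5), a partner of LOXL1, had 572.5 ± 31.8 CPM in shZNF469 and 565.0 ± 4.78 CPM in shControl (edgeR adjusted p = 0.878). Neither passed. POSTN (periostin), a matricellular protein that aids activation of LOX, fell 1.45-fold to 106.9 ± 6.26 CPM in shZNF469, against 155.0 ± 6.10 CPM in shControl (edgeR adjusted p = 0.00321). LTBP4, an elastic fibre protein that binds fibulin-5, rose 1.36-fold, and FN1 (fibronectin), which binds LOX, rose 1.09-fold (edgeR adjusted p = 0.0261), a call lost in 7 of the 15 alternatives. FBLN1 (fibulin-1) also rose, 1.20-fold, a call lost in 7 of the 15 alternatives, and the call of LTBP4 was lost in 3. FBN2 (fibrillin-2) fell 1.13-fold (edgeR adjusted p = 0.0438), a call lost in 9 of the 15. ELN, which belongs to the substrates too, also fell, and the calls of ELN and POSTN held in all 15. With 1 library left out, 0 to 3 genes of the list were higher.

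Hydroxylation of lysines in the collagen telopeptides decides which kind of cross-link the oxidases can form. A list of 10 tested genes held this step together with helical lysine hydroxylation, hydroxylysine glycosylation and collagen folding. Of these 10 genes, 3 fell and 0 rose, where 5.34% of all tested genes fell and 4.56% rose. Their median log2 fold change was -0.08. PLOD2, the telopeptide lysyl hydroxylase, fell 1.40-fold, to 58.5, 68.6 and 57.3 CPM in shZNF469 against 90.1, 83.4 and 85.0 CPM in shControl (edgeR adjusted p = 0.0119), a call lost in 4 of the 15 alternatives. SERPINH1 (HSP47), the collagen chaperone, fell to 789.5 ± 60.0 CPM in shZNF469, against 1105.0 ± 21.3 CPM in shControl (SD, n = 3 each; edgeR adjusted p = 0.00381). P3H4, a component of the complex that hydroxylates helical lysines, fell 1.31-fold. PLOD3, which also glycosylates hydroxylysine, stood at 214.1 ± 18.2 CPM in shZNF469 and 185.0 ± 2.79 CPM in shControl (edgeR adjusted p = 0.108).

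Copper reaches the oxidases in the secretory pathway. Of 10 tested genes of copper handling, 1 fell and 0 rose, near the 9.9% of all tested genes that passed, and their median log2 fold change was 0.14. ATP7A, the pump that loads secreted cuproenzymes, had 19.4 ± 2.61 CPM in shZNF469 and 17.1 ± 2.18 CPM in shControl (SD, n = 3 each; edgeR adjusted p = 0.47). The gene that fell was MT2A, a metallothionein that binds copper and zinc. It had 59.8, 51.0 and 72.8 CPM in shZNF469, against 86.6, 110.7 and 125.8 CPM in shControl, 1.76-fold lower (edgeR adjusted p = 0.0253, lost in 4 of the 15 alternatives).

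Other enzymes that cross-link matrix or oxidise amines were mostly absent from the listed genes, and only 4 of 10 were tested. TGM2, the tissue transglutaminase, had 412.6, 375.8 and 405.6 CPM in shZNF469, against 665.7, 675.4 and 688.2 CPM in shControl, 1.70-fold lower (edgeR adjusted p = 0.000487). PXDN (peroxidasin), which forms sulfilimine bonds in collagen IV, fell 1.28-fold to 550.6 ± 19.9 CPM in shZNF469, against 703.4 ± 7.91 CPM in shControl (SD, n = 3 each; edgeR adjusted p = 0.00379). Both fell, as LOXL2 did, where 5.34% of all tested genes fell. MAOA and TGM1 did not pass.

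Of 16 tested regulators known to act on members of the family, 3 rose and 0 fell, with a median log2 fold change of -0.04. HIF1A, the hypoxia factor that drives LOX, LOXL2 and LOXL4 in low oxygen, had 595.6 ± 35.3 CPM in shZNF469 and 599.5 ± 12.9 CPM in shControl (SD, n = 3 each; edgeR adjusted p = 0.946). TGFB1, a growth factor that induces LOX in fibroblasts, had 86.8 ± 7.94 CPM in shZNF469 and 93.5 ± 4.43 CPM in shControl (edgeR adjusted p = 0.476). TGFB2, a related ligand, rose to 23.2, 28.4 and 26.3 CPM in shZNF469, against 18.4, 18.3 and 14.9 CPM in shControl (edgeR adjusted p = 0.0186). SNAI2 rose 1.24-fold (edgeR adjusted p = 0.0165), and ARNT, the partner of HIF1A, rose 1.15-fold (edgeR adjusted p = 0.0496). The calls of TGFB2, SNAI2 and ARNT were lost in 6, 5 and 11 of the 15 alternatives, and leaving out any control library left 0 regulators higher. Over all 7 lists, 70 of 81 genes were tested, 7 rose and 17 fell, where 4.56% of all tested genes rose and 5.34% fell.

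**Figure D5:**
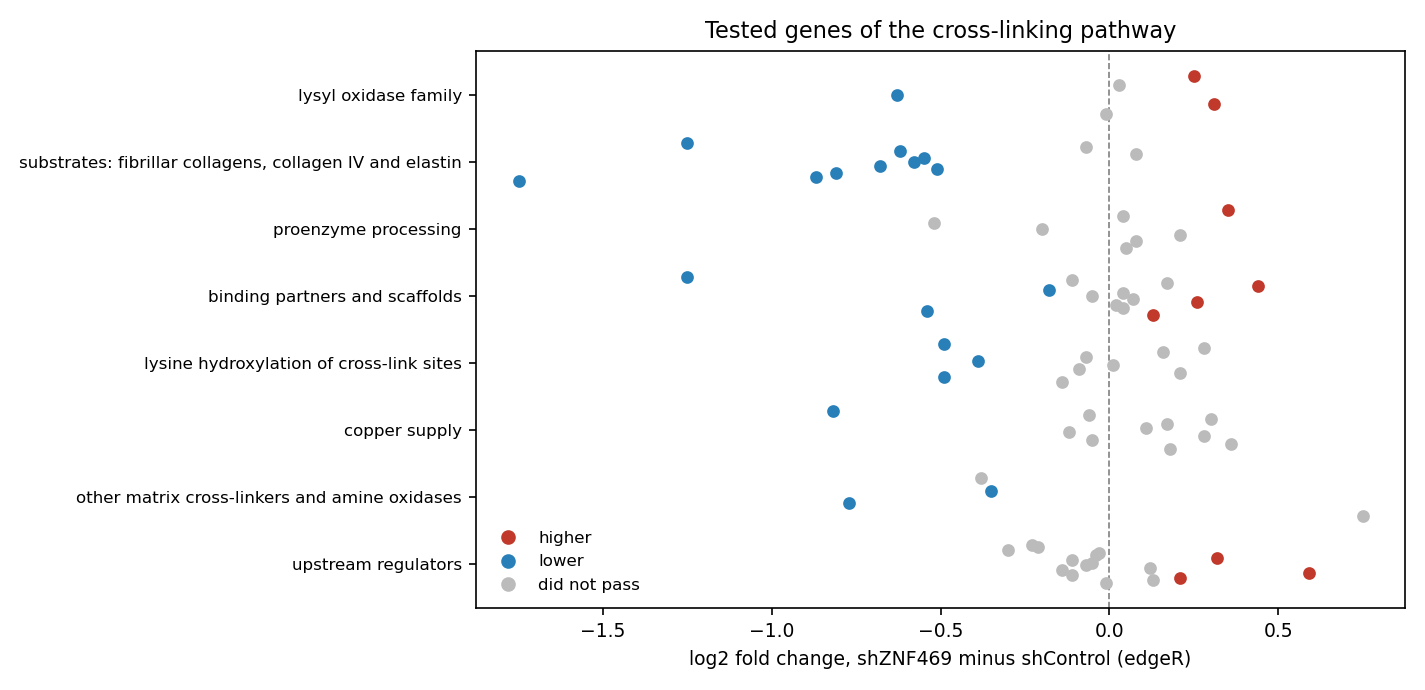
Log2 fold change, shZNF469 minus shControl, of each tested gene in the family and in the lists of its pathway, 1 point per gene, in red where it passed the test as higher, in blue where it passed as lower and in grey where it did not pass. Of the 11 substrates, 9 are blue, at a list median of -0.62, while the family holds 2 red points and 1 blue point.

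Several members share their locus with other genes, and no strand setting of the counting was given in the sources used here. LOX lies wholly within SRFBP1 on the opposite strand, which had 287, 304 and 214 counts in shZNF469, against 239, 343 and 257 in shControl, under the LOX counts by far. LOXL1 shares 1787 bases with the antisense LOXL1-AS1, whose counts equalled 6.45%, 7.78% and 7.37% of those of LOXL1 in shZNF469 and 9.96%, 10.6% and 8.88% in shControl. LOXL1-AS1 did not pass, at 17.6 ± 1.80 CPM in shZNF469 and 19.4 ± 1.58 CPM in shControl (edgeR adjusted p = 0.447). LOXL2-AS1, which lies inside LOXL2, had 24, 0 and 0 counts in shZNF469, against 18, 16 and 18 in shControl, beside at least 24240 for LOXL2 in each library. LOXL3 overlaps HTRA2 and DOK1, neither of which passed (edgeR adjusted p = 0.177 and 0.571), and LOXL4 overlaps no annotated gene. Of 11 tested genes that overlap or adjoin a member, 0 passed the edgeR test, where 9.9% of all tested genes passed.

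For each member, the 3 genes of most similar course over the 6 libraries were taken by the root mean square difference of log2 CPM after centring each gene on its mean, among 9394 genes with a mean of 10 CPM or more. For LOXL2 these were HNRNPM, an RNA-binding protein (0.024), DNMT1, the maintenance DNA methyltransferase (0.038), and FADS2, a fatty acid desaturase (0.039). They were 1.58-fold, 1.5-fold and 1.49-fold lower in shZNF469. For LOX they were TRAK2 (0.013), HIF1A (0.014) and MARCKS (0.014), all near the flat course of LOX itself. For LOXL1 they were STARD10 (0.019), NEU1 (0.02) and VIM (0.026). For LOXL3 the nearest were RAB13 (0.019), WNT5B (0.024) and ZNF622 (0.024), and for LOXL4 KAZN (0.022), CBFA2T2 (0.025) and SPOCD1 (0.026). On log2(TPM + 1) most of these neighbours gave way to others, with 2 of 3 shared for LOX, 1 each for LOXL1, LOXL2 and LOXL3, and 0 for LOXL4.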

How the data were processed

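Total RNA of 6 fibroblast libraries was sequenced after column extraction and NEBNext Ultra library preparation, per the labels' protocols. Per the submitters' processing notes, reads were handled with HISAT2 and StringTie on GRCh38.p14, with no tool version named. The deposited table gives the authors' whole-number read counts per gene and, beside them, the TPM that the authors computed. Annotation release, strand setting and filters were not given in the sources used here. The lowest TPM above 0 is 0.333.

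Counts were fitted with edgeR 4.0.16 in R 4.3.3 by filterByExpr (minimum count 10), TMM scaling and the two-sided quasi-likelihood test of group, with Benjamini-Hochberg adjustment over 16353 genes. Fold changes are shZNF469 over shControl. The fit was tested on simulated data. Sums, shares and ratios were compared by exact permutation in scipy 1.17.1. Named genes were ZNF469, the members, overlapping genes, 12 chosen pathway genes, up to 4 genes of lowest p per pathway list and 3 genes of like course per member; COL4A1, COL4A2, COL27A1, TGFB1, FBLN1, FBN2 and the marker genes not listed fall outside that rule and were named after their values were seen. Members and lists were chosen with earlier results of these data known.

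Library pairs within a group differed beyond sampling noise, so none was counted as a repeat. Alternatives were DESeq2 1.42.0, other scalings and filters, a replicate block, limma 3.58.1 on log2(TPM + 1) or log2(TPM + 0.1), and leaving out each library.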

Additional observations from a re-analysis of the deposited data

How the results depend on the processing

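The lower LOXL2 call held in all 15 alternatives, with 1 member lower throughout. The count of members higher, 2 in the main analysis, was 1 with upper-quartile scaling, 1 without a filter on low counts, 0 with the replicate block, 1 on log2(TPM + 1), 0 on log2(TPM + 0.1) and 0 to 2 when 1 library was left out. LOXL1 kept its direction but lost its call with upper-quartile scaling (0.31), without a filter (0.31), with the replicate block (0.30, edgeR adjusted p = 0.055) and on log2(TPM + 0.1) (0.29), and ran from 0.24 to 0.39 with 1 library left out. LOXL4 lost its call with the replicate block (0.25, edgeR adjusted p = 0.0597), on log2(TPM + 1) (0.23) and on log2(TPM + 0.1) (0.23), and ran from 0.22 to 0.29 with 1 library left out. The log2 fold change of LOX turned to 0.002 with library totals only, and with 1 library left out it ran from -0.058 to 0.024, and that of LOXL3 from -0.034 to 0.10. Likewise the log2 ratio of LOXL3 to LOX ran from -0.051 to 0.16 and that of LOXL1 to LOXL4 from -0.015 to 0.10, and the log2 fold changes of EFEMP2 and FBLN5 from -0.035 to 0.12 and from -0.019 to 0.066. None of these log2 fold changes near 0 passed the test in either direction. The ratios could not pass at 0.05, because their exact permutation p cannot go below 0.1.

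Over all genes, 745 were higher and 874 lower. DESeq2 called 1638 higher and 1642 lower, log2(TPM + 1) gave 233 higher and 526 lower, and log2(TPM + 0.1) gave 191 higher and 462 lower. Leaving out 1 library gave 204 to 769 higher and 333 to 854 lower. Of the pathway genes, 7 were higher in the main analysis, against 11 with DESeq2, 1 on log2(TPM + 1), 0 on log2(TPM + 0.1) and 0 to 8 with 1 library left out, while the lower count stayed within 1.5 times of 17. Of the 3 genes of like course, log2(TPM + 1) shared 1 for LOXL1, 1 for LOXL2, 1 for LOXL3 and 0 for LOXL4. The cause of these shifts was not tested.

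Deviations from the group means correlated at -0.023, 0.076 and 0.033 for libraries of the same replicate number. For libraries of different number they correlated at -0.103 to 0.061. With 3 libraries per group, these values cannot decide whether the replicate numbers pair the libraries. With 3 technical replicates of 1 line per group, an exact permutation test cannot go below 0.1.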
